A study of Mus musculus with 10 samples.

Results

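The genes of oxidative phosphorylation (OXPHOS) were compared between mouse sarcomas of 2 models. The members were the protein-coding genes whose symbols begin with Nduf, Sdha to Sdhd, Uqcr, Cox4i, Cox5, Cox6, Cox7, Cox8 or Atp5, together with the 13 protein-coding genes of mitochondrial DNA. This rule took 111 of the 56750 features of the count table, 98 of them nuclear and 13 mitochondrial. It also took 8 complex I assembly factors (Ndufaf), the ATPase inhibitor Atp5if1, the pseudogene-named Cox5b-ps, which the annotation lists as coding, and a second Ensembl identifier of Atp5po. It did not use any measured value.

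RNA was measured by rRNA-depleted RNA-seq in 9 libraries from 5 bulk tumors. The dFLEx group held 3 tumors, 170019, 170024 and 170025, labelled dFLEx CDS +/-, with 2 duplicate libraries each. These mice carry an HA-tagged CIC::DUX4 fusion at Rosa26 behind the CAG promoter, which needs both Cre and FLP; both recombinases were delivered as pCAG plasmids by electroporation of the gastrocnemius muscle. The KP group held 2 tumors, 3800 and 3802, labelled KRASloxP-STOP-loxP-G12D; p53fl/fl, with 2 libraries from 3800 and 1 from 3802. Driver and p53 allele differ together between the models and cannot be told apart, and the labels give the tissue only as tumor and no age. The CIC_DUX4 feature had 105.4, 202 and 423 CPM in the dFLEx tumors and 0.00 and 0.24 CPM in the KP tumors, where CPM is the count of a tumor divided by its TMM-adjusted library size. Library totals ran from 20503474 to 46302223 counts, and 3802, the library with the lowest total, had a count for the most features, 36904 against 24280 to 31768 in the others.

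Oxidative phosphorylation passes electrons from NADH through complex I, or from succinate through complex II, to complexes III and IV, and complex V uses the resulting proton gradient to make ATP. Complex II is built from nuclear genes alone, whereas the other complexes combine nuclear subunits, translated in the cytosol, with subunits that are translated inside the mitochondrion from transcripts of its own circular DNA. Several complex IV subunits have tissue isoforms: Cox6a2, Cox7a1 and Cox8b are the heart and skeletal muscle forms, Cox6b2 is known for its testis expression, and Cox4i2 and Ndufa4l2 are known as hypoxia-responsive forms.

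Whether a mitochondrial transcript could be counted depended on its sequence, because reads with more than 1 alignment were left out of the counts. In GRCm39, chromosome 1 holds a copy of mitochondrial bases 6394 to 11042 at chr1:24650616-24655265, identical over 3 runs of 3067, 367 and 1222 bases. Below are 180 bases of the plus strand of mitochondrial DNA (GRCm39, MT 6334 to 6513, inside the coding sequence of mt-Co1), shown because they hold the point where the copy begins; capitals mark the bases inside the copy.
mtDNA 6334 to 6513: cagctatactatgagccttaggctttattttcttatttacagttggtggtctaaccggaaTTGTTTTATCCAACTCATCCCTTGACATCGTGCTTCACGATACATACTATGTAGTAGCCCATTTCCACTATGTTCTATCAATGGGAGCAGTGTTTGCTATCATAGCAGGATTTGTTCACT
A 150-base window that begins in the capitals has an identical partner on chromosome 1, and so has each window downstream that lies within a run, while windows that take in lower-case bases do not match there. A read pair with one mate outside the copy can still have a single place.

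The copy takes in mt-Co2, mt-Atp8, mt-Atp6, mt-Co3 and mt-Nd4l whole (100% of their 150-base windows) and 98.5% of the windows of mt-Nd3. These 6 mRNAs encode complex IV, complex V and complex I subunits that every mitochondrion uses, yet their summed level was 17.8, 23.2 and 10.6 CPM in 170019, 170024 and 170025, and 6.38 and 18.2 CPM in 3800 and 3802. The remaining 7, mt-Nd1, mt-Nd2, mt-Co1, mt-Nd4, mt-Nd5, mt-Nd6 and mt-Cytb, summed to 2686, 8903, 14248, 8578 and 2091 CPM in the same order. mt-Co1 had copies of 23.6% of its windows and mt-Nd4 of 59.2%, and the other 5 had none, so those 2 levels are also underestimates. The 7 features annotated within the copy on chromosome 1 had 0.00 to 9.64 CPM per tumor, so these features did not hold high counts in place of the 6 mRNAs. Levels of the 6 mRNAs are therefore not levels of the transcripts. The mitochondrial set is described below by the other 7, except where 12 or 13 mRNAs are named.

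**Figure D1:**
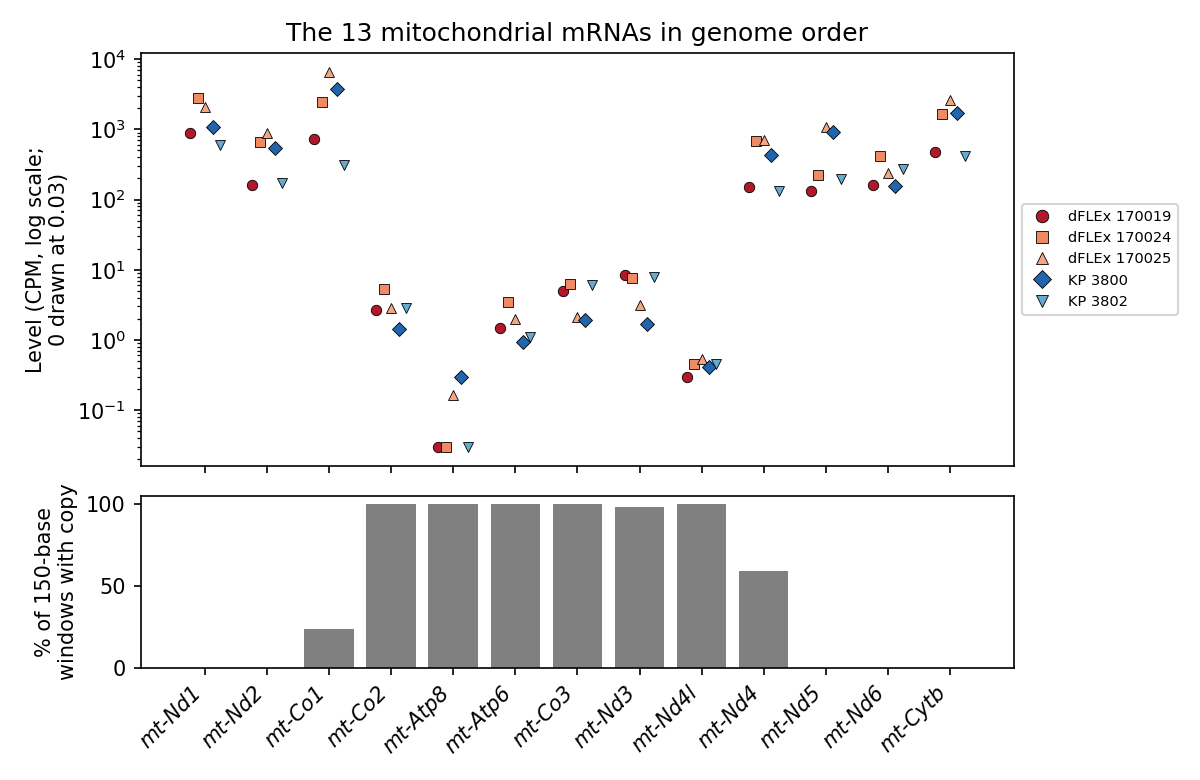
The upper plot gives the level of each of the 13 mitochondrial mRNAs in CPM on a log scale, ordered along the mitochondrial genome, with 1 point per tumor; the lower plot gives the percent of its 150-base windows that have an exact copy elsewhere in GRCm39. The 6 mRNAs at 98.5% or 100% all sit below 10 CPM, and the other 7 above 100 CPM.

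Among the nuclear members, 82 had no copied window and 16 had some. The most copied were Atp5mc2 (86.4% of windows), Cox7c (64.2%), Atp5mg (54.1%) and Atp5mc1 (53.7%), so their levels are underestimates. Of the 111 members, 106 passed the filter on low counts: 94 nuclear genes and 12 mitochondrial mRNAs. mt-Atp8, Cox7b2 and Cox8c (the testis forms of Cox7b and Cox8), Ndufb11b and the second Atp5po identifier did not, and Cox8c had no count in any library.

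In the comparison of dFLEx with KP tumors, none of the 106 tested members passed an adjusted p of 0.05 in edgeR's quasi-likelihood test. Over all genes 45 of 24743 passed (0.182%). At an unadjusted p under 0.05 there were 4 members, Cox6b2, Cox4i2, Ndufa4l2 and Cox6a2, all higher in dFLEx, against 10.6% of all genes. DESeq2 on the same sums called 3 members, Cox6b2, Cox4i2 and Ndufa4l2, where it called 6.07% of all genes. The log2 fold change was above 0 for 93 of 94 nuclear members, with a median of 0.60, and for 6 of the 7 countable mitochondrial mRNAs, with a median of 0.67. Over all tested genes the median was -0.18 and 43.7% were above 0. Every dFLEx tumor lay above every KP tumor for 9 nuclear members (9.57%), a smaller share than the 13.7% of all genes. No member had every dFLEx tumor below, against 11.7% of all genes.

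The count of nuclear members above 0 depended on single tumors. Without 170019 it was 60 of 94 with a median of 0.21, and without 3800 it was 75 of 94 with a median of 0.51, while without 3802 the median was 1.27. With library totals in place of TMM scaling the median of all genes was -0.46 and that of nuclear members 0.24, with 74 of 94 above 0. The nuclear median stood 0.79 above that of all genes under TMM and 0.70 above it under library totals. Over all settings this gap ran from 0.37 without 170019 to 1.17 without 170025. It was 0.38 in limma-voom with a random tumor effect. With a minimum mean level of 1 CPM it was 0.48, and 48.0% of all genes were then above 0.

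**Figure D2:**
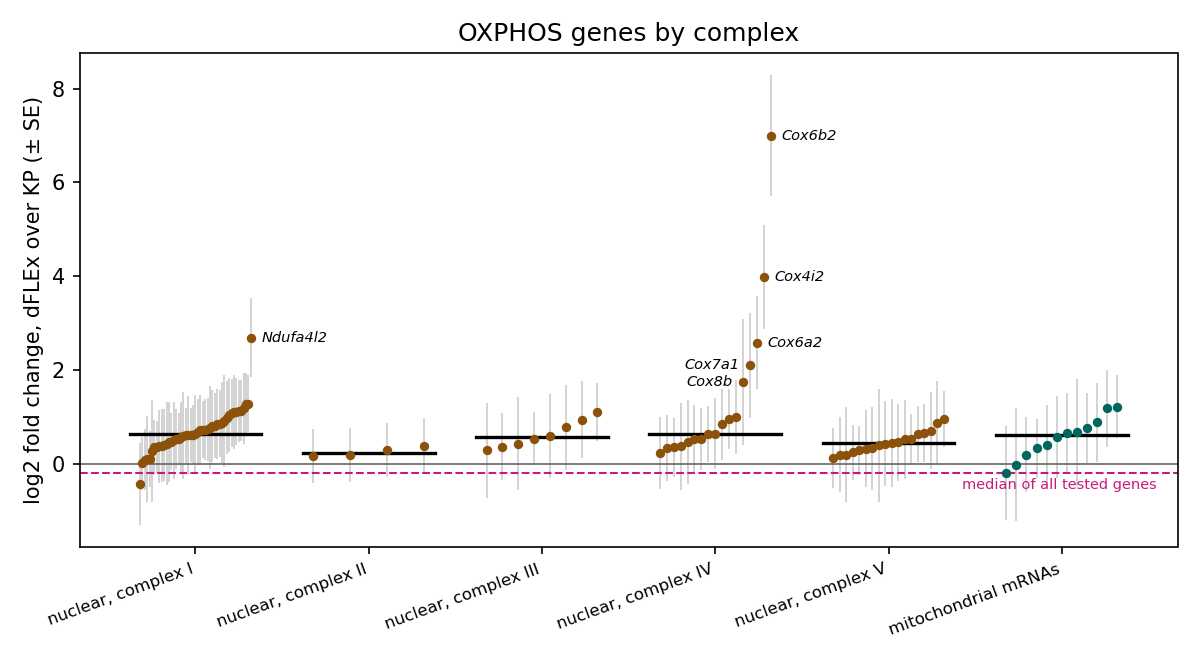
Each point is 1 tested member, at its log2 fold change of dFLEx over KP with its SE as a bar, in groups by complex for nuclear genes and as 1 group for the 12 tested mitochondrial mRNAs; black lines are group medians and the dashed line is the median of all tested genes. Medians run from 0.25 in complex II to 0.65 in complex IV, and 5 tissue isoforms of complex IV and Ndufa4l2 stand above the rest.

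Cox6b2 showed the widest difference. Cox6b proteins sit on the outer face of complex IV at the contact between its monomers; Cox6b1 is the common form. Cox6b2 (ENSMUSG00000051811, minus strand, GRCm39 chr7:4754791-4756093) was at 819, 400 and 182 CPM in the dFLEx tumors and at 0.94 and 6.42 CPM in the KP tumors. The groups did not overlap, and the lowest dFLEx tumor was far above the higher KP tumor. Duplicates of a tumor differed by at most 1.07-fold. The log2 fold change was 7.00 ± 1.28 (SE), with an adjusted p of 0.094 in edgeR, which is above the threshold; it was 3.25e-11 in DESeq2 and 0.0025 in limma-voom with a random effect per tumor, which called 2.78% of all genes. With 3802 left out, edgeR called Cox6b2 alone among the members and 1.64% of all genes.

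Cox6b1 did not separate the groups. It was at 604, 404 and 113 CPM in the dFLEx tumors and at 91.6 and 447 CPM in the KP tumors, with a log2 fold change of 0.47 ± 0.89 and an adjusted p of 0.94. Per kilobase of transcript, Cox6b2 made up 58.3%, 50.6% and 62.5% of the summed Cox6b1 and Cox6b2 level in the dFLEx tumors and 1.05% and 1.46% in the KP tumors. These shares do not depend on how libraries were scaled. Of the genes on either side of Cox6b2, Garin5b, the nearer, was at most 1.02 CPM in any tumor, with a log2 fold change of -2.52 ± 2.09. On the other side Kmt5c, a histone H4 lysine 20 methyltransferase, was at 75.7, 108 and 86.5 CPM in dFLEx and 15.2 and 21.9 CPM in KP, with a log2 fold change of 2.28 ± 0.60 and an edgeR adjusted p of 0.20.

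The promoters of the pair, 250 bases before and 50 after the start from RefSeq (GRCm38.p6, minus strand of chr7:4753045-4753344 for Cox6b2 and of chr7:30626065-30626364 for Cox6b1), are given because the 2 genes differed so much in these tumors. Capitals mark CGGAAG, the core that ETS factors such as GABP bind, on either strand.
Cox6b2: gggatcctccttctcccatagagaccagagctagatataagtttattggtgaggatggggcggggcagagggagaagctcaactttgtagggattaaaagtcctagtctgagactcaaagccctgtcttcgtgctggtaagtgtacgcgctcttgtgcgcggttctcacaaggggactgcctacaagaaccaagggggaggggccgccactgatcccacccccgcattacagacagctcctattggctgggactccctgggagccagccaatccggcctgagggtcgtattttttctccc
Cox6b1: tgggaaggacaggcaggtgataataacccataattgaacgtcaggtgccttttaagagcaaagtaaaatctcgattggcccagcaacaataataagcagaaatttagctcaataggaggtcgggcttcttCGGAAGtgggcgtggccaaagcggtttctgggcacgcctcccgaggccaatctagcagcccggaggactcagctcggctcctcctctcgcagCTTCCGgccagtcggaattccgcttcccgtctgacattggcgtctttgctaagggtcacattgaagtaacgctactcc
CGGAAG occurred 2 times in the Cox6b1 window and not in that of Cox6b2. Among all 27025 genes with a RefSeq promoter, 18.8% held it, and among the 76 promoters found for nuclear members, 34 did (44.7%). The core of the NRF1 motif, GCGCANGCG, on either strand and sharing no stretch with the first, was in 7.03% of all promoters and in 22 of the 76 (28.95%), among them those of Sdha, Sdhd, Uqcrc1 and Cox6a1. The octamer TGAATGAA, a CIC binding motif, was in 1.502% of all promoters and in 1 of the 76, that of Ndufc1. None of the 3 was found in the Cox6b2 window. Only the letters given were searched, and only in this window, so the lack of a match does not show that a site is absent. A match here describes the letters and not a bound site.

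The hypoxia-responsive forms were also higher in every dFLEx tumor. Cox4i2, an alternative to the complex IV subunit Cox4i1, was at 172, 27.1 and 51.4 CPM in the dFLEx tumors and at 2.14 and 8.49 CPM in the KP tumors, so the groups did not overlap, although the dFLEx values themselves spanned a wide range. Its log2 fold change was 3.98 ± 1.11 with an edgeR adjusted p of 0.22, and 0.0012 in DESeq2. Cox4i1 was at 3148, 1554 and 388 CPM against 525 and 2094 CPM, with overlapping groups and a log2 fold change of 0.37 ± 0.93. Per kilobase, Cox4i2 was 5.31%, 1.75% and 11.9% of the pair in dFLEx and 0.42% and 0.41% in KP, so Cox4i1 remained the main form in each tumor.

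Ndufa4l2, a paralog of Ndufa4, was at 90.8, 49.4 and 42.0 CPM in the dFLEx tumors and at 3.64 and 15.2 CPM in the KP tumors. The log2 fold change was 2.69 ± 0.84, with an adjusted p of 0.27 in edgeR and 0.029 in DESeq2. Ndufa4, now known as a complex IV subunit but grouped here under complex I by its name, was at 524, 458 and 131 CPM against 117 and 306 CPM, and its fold change was 0.81 ± 0.76. Ndufa4l2 was 5.76% to 15.4% of the pair per kilobase in dFLEx and 1.73% and 2.73% in KP.

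Genes of 2 other lists were measured beside these isoforms. Of 10 genes known to respond to hypoxia, 9 had a log2 fold change above 0, against 43.7% of all genes, and 6 had every dFLEx tumor above both KP tumors, against 13.7% of all genes. None passed the threshold. The median was 1.31. Car9, the cell-surface carbonic anhydrase IX, was the highest at 156, 95.5 and 138 CPM against 7.32 and 6.87 CPM (log2 fold change 4.19 ± 0.65, edgeR adjusted p 0.074), and the glucose transporter Slc2a1 was the lowest at -0.17 ± 0.64. Cox4i2 and Ndufa4l2 are also expressed by pericytes. Of 6 pericyte markers, 5 had a fold change above 0, none at 0 CPM in any tumor, and they summed to 932, 608 and 1120 CPM in dFLEx and 417 and 94.7 CPM in KP. In CPM, 8 of the 10 hypoxia genes and 5 of the 6 pericyte markers were lowest in 3802. Cox4i2 and Ndufa4l2 were lowest in 3800 and highest in 170019. As shares of their pairs per kilobase, both isoforms were instead highest in 170025 (11.9% and 15.4%). In that tumor 5 of the 10 hypoxia genes and 3 of the 6 pericyte markers had their highest CPM. The part of either list in the isoform levels was not tested. In bulk tumors, more cells of a type and more RNA per cell cannot be told apart.

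**Figure D3:**
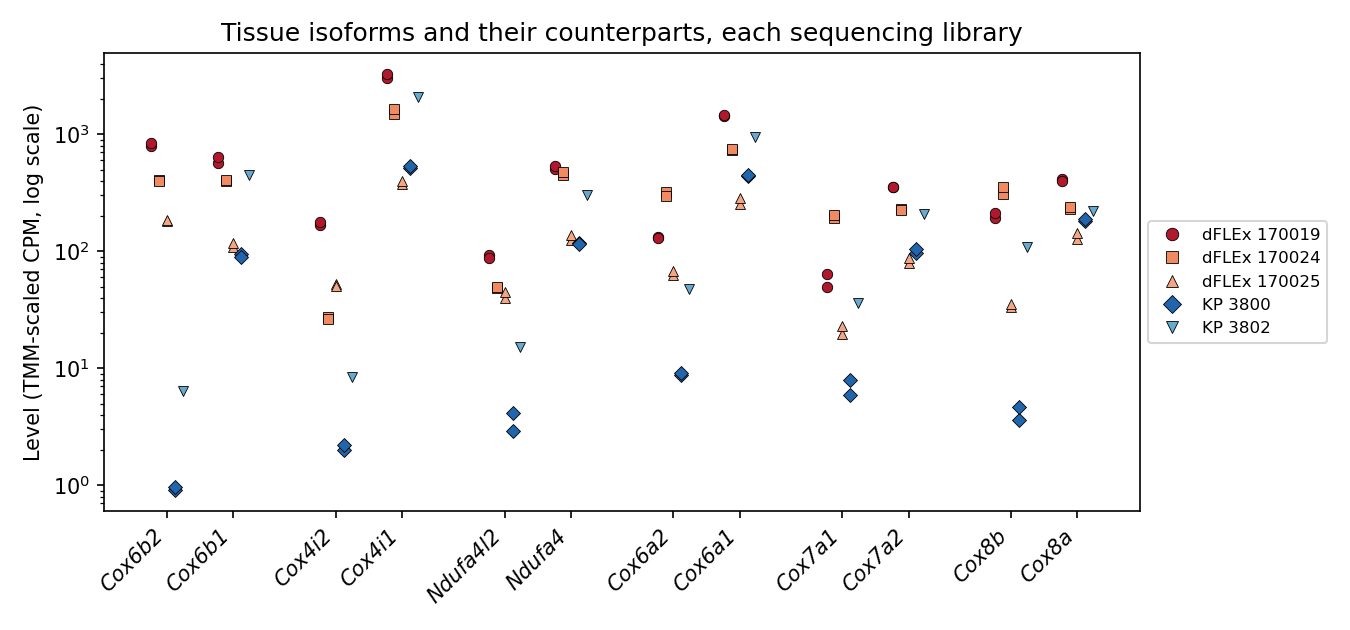
Levels of 6 tissue isoforms, each beside its ubiquitous counterpart, in CPM on a log scale; each point is 1 of the 9 libraries, with marker and color by tumor. Cox6b2, Cox4i2, Ndufa4l2 and Cox6a2 separate the dFLEx from the KP libraries, and none of the counterparts does.

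The 3 muscle isoforms of complex IV had the next highest fold changes. Cox6a2 was at 132, 310 and 65.0 CPM in the dFLEx tumors and at 9.04 and 47.3 CPM in the KP tumors, without overlap. Its log2 fold change was 2.59 ± 0.99 with an edgeR adjusted p of 0.40. Cox7a1 was at 56.5, 198 and 21.3 CPM against 6.78 and 36.0 CPM, and Cox8b at 203, 331 and 34.4 CPM against 4.22 and 109 CPM. In both, 170025 lay below 3802, so the groups overlapped, and the fold changes were 2.10 ± 1.12 and 1.74 ± 1.34. The counterparts Cox6a1, Cox7a2 and Cox8a had fold changes of 0.23 ± 0.77, 0.52 ± 0.73 and 0.36 ± 0.62, and all 3 had overlapping groups.

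The log2 ratio of the 3 muscle forms to the 3 ubiquitous forms, from summed CPM, was -2.49, -0.52 and -2.01 in 170019, 170024 and 170025 and -5.18 and -2.84 in 3800 and 3802. The mean was -1.67 ± 1.02 (SD, n = 3) in dFLEx and -4.01 ± 1.66 (SD, n = 2) in KP, a difference of 2.34. Without 3800 it was 1.16 and without 3802 it was 3.51. Each dFLEx tumor was above each KP tumor, although 170019 was above 3802 by less than the SD of either group. Skeletal myocyte markers moved the same way. All 12 had a log2 fold change above 0 (median 2.51), none was at 0 CPM, and their sum was 10261, 38722 and 10196 CPM in dFLEx and 1525 and 4884 CPM in KP. The fast myosin Myh4 had the highest fold change, 3.17 ± 1.02, and Myh2 the lowest, 1.14 ± 1.12. The part of myocytes in the isoform values was not tested. Markers of other lists also differed, where 43.7% of all genes had a fold change above 0. Of 8 macrophage markers, 7 were below 0, and the 8 summed to 1062 to 1266 CPM in dFLEx and 2636 and 5308 CPM in KP. All 8 endothelial markers were above 0 and summed to 253 to 600 CPM against 107 and 189 CPM. The paper reports Pecam1, Erg and Cdh5, which are among them, in a subcluster of dFLEx tumor cells. All 6 T cell markers were below 0, and 5 of 6 fibroblast and 5 of 6 adipocyte markers were above 0. Of 5 erythroid markers, 2 were above 0 and 3 below. No marker of these lists passed the threshold. The part of these lists in the levels of nuclear and mitochondrial members was not tested.

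**Figure D4:**
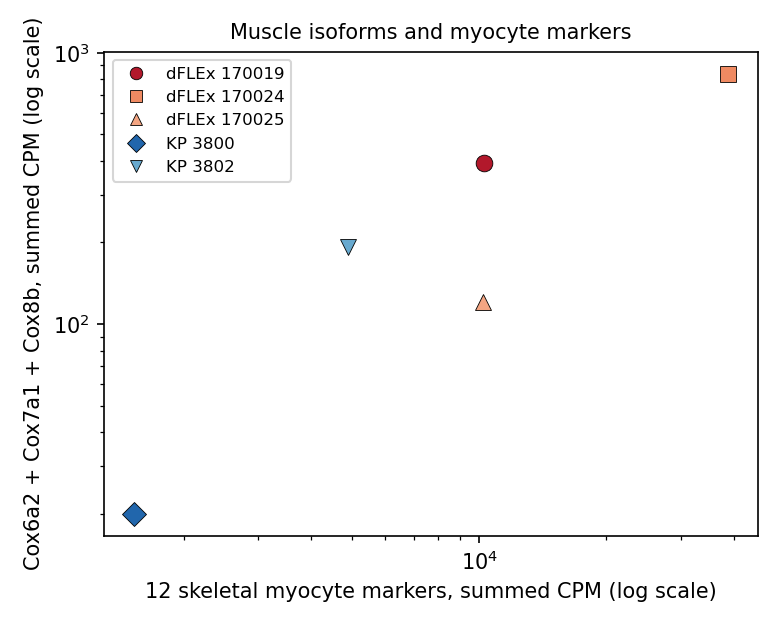
Each of the 5 tumors is placed by the summed CPM of 12 skeletal myocyte markers and by the summed CPM of Cox6a2, Cox7a1 and Cox8b, both on log scales. 3800 is lowest and 170024 highest on both axes, and 3802 lies above 170025 on the isoform axis but below it on the marker axis.

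Complex I takes electrons from NADH and is the largest of the complexes. Its 47 tested nuclear members had a median log2 fold change of 0.64, and 46 of 47 were above 0. Of the core subunits, Ndufs1, the largest iron-sulfur subunit of the NADH module, was at 45.4, 55.7 and 78.0 CPM in dFLEx and 83.3 and 28.9 CPM in KP (0.09 ± 0.65), which is no separation. Ndufv1, which binds FMN and NADH, was at 282, 255.9 and 119 CPM against 162 and 181 CPM (0.35 ± 0.59). Its partner Ndufv2 was at 447, 320 and 113 CPM against 96.8 and 174 CPM (1.12 ± 0.72). Ndufs3, Ndufs7 and Ndufs8, of the modules that hand electrons to ubiquinone, had log2 fold changes from 0.38 (Ndufs8) to 0.73 (Ndufs3), all 3 with overlapping groups.

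The highest complex I members after Ndufa4l2 were Ndufa12, an accessory subunit, and Ndufv3, an accessory subunit of the NADH module. Ndufa12 was at 173, 219 and 102 CPM in dFLEx and 82.7 and 52.2 CPM in KP, without overlap (1.29 ± 0.61, edgeR adjusted p 0.54). It was called when the 9 libraries were treated as independent samples, a fit that called 17.1% of all genes. Ndufv3 was at 194, 156 and 74.1 CPM against 39.6 and 76.8 CPM (1.28 ± 0.66). The lowest, beside Ndufs1 above, were the assembly factors Ndufaf8 (-0.42 ± 0.87), Ndufaf7 (0.02 ± 0.57) and Ndufaf4 (0.11 ± 0.59) and the membrane subunit Ndufa11 (0.10 ± 0.92). Ndufaf8 was at 50.95, 30.6 and 9.62 CPM against 15.1 and 65.9 CPM. The 8 assembly factors within the rule had a median of 0.50, against 0.68 for the 39 other complex I members. Ndufaf3 alone among the 8 had groups without overlap, at 30.1, 25.8 and 13.8 CPM against 8.34 and 12.8 CPM (1.14 ± 0.64).

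Complex II, the succinate dehydrogenase shared with the tricarboxylic acid cycle, varied least of the 5 complexes. Its 4 genes had fold changes from 0.17 to 0.38. The median of highest over lowest tumor was 2.29-fold, against 4.53-fold for all nuclear members. The 4 transcripts are long, 1142 to 3171 bases, and the 29 nuclear members of 1200 bases or more had a similar median, 2.47-fold. Sdha, the flavoprotein, was at 108, 189 and 227 CPM in dFLEx and 176 and 91.8 CPM in KP. Sdhb, the iron-sulfur subunit, was at 282, 291 and 131 CPM against 235 and 183 CPM. The membrane anchors Sdhc and Sdhd ran from 89.0 to 186 CPM and from 120 to 284 CPM over the 5 tumors. None of the 4 separated the groups.

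The 8 nuclear members of complex III, which passes electrons from ubiquinol to cytochrome c, had a median of 0.57. The Rieske protein Uqcrfs1 was at 198, 203 and 108 CPM in dFLEx and 99.9 and 134 CPM in KP (0.54 ± 0.57). The core proteins differed in which tumor was high: Uqcrc1 was at 527, 433 and 153 CPM against 165 and 410 CPM (0.37 ± 0.71), and Uqcrc2 at 69.1, 80.8 and 148 CPM against 87.6 and 15.7 CPM (0.94 ± 0.82). 19.7% of the exonic bases of Uqcrc2 lie under another gene. Uqcrb alone had every dFLEx tumor above both KP tumors (1.11 ± 0.62, edgeR adjusted p 0.65).

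Complex V, the ATP synthase, had 18 tested nuclear members with a median of 0.44, all above 0. The catalytic subunit Atp5f1b was at 1002, 1181 and 991 CPM in dFLEx and 916 and 540 CPM in KP, without overlap, but 170025 and 3800 differed by little (0.54 ± 0.53, edgeR adjusted p 0.87). Atp5pf, coupling factor 6 of the stator stalk, also separated the groups and had the highest fold change of complex V, at 215, 289 and 156 CPM against 149 and 76.8 CPM (0.96 ± 0.60, edgeR adjusted p 0.72). Atp5f1a, the partner of Atp5f1b, was at 693, 777 and 791 CPM against 769 and 458 CPM (0.30 ± 0.52). Atp5mc3, 1 of 3 genes for the c subunit of the rotor ring, had the lowest fold change of complex V, 0.14 ± 0.64. The inhibitor Atp5if1 was at 201, 87.6 and 33.4 CPM against 62.2 and 125 CPM (0.20 ± 0.80); 69.6% of its exonic bases overlap another gene, which removes reads.

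The remaining complex IV members had overlapping groups. Cox7a2l, which links complexes III and IV, was at 0.54 ± 0.66, and Cox7b at 0.96 ± 0.64. Cox7b2 had at most 0.20 CPM in any tumor.

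Nuclear members varied together across tumors along an order that crossed the groups. Of the 94, 69 were highest in 170019 and 18 in 170024, whereas 50 were lowest in 170025 and 32 in 3800. They took 3.25%, 2.56% and 1.00% of all counts in 170019, 170024 and 170025 and 1.15% and 2.78% in 3800 and 3802. The dFLEx tumors thus differed from each other by at least as much as the KP tumors did. Summed over tested genes the level was 25184 ± 14076 CPM (SD, n = 3) in dFLEx and 17000 ± 8698 CPM (SD, n = 2) in KP, a difference smaller than the SD of the dFLEx group. 170025 (10323 CPM) lay below 3800 (10850 CPM).

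This order was strongest in short transcripts. Relative to a gene's own mean over the 5 tumors on the log2 scale, the 24 tested members under 600 bases had medians of 1.28, 0.69 and -1.04 in 170019, 170024 and 170025 and -1.11 and 0.52 in 3800 and 3802. In the 29 members of 1200 bases or more the medians were 0.62, 0.49, -0.48, -0.36 and -0.16. Atp5f1e, the short epsilon subunit of complex V, spanned 181 to 3332 CPM, and the long Ndufs1, Uqcrc2 and Sdha were highest in 170025 or 3800. Most of the 29 long members were not: 17 were highest in 170019 and 6 in 170024, with 3 each in 170025 and 3800. Across the 94 members Spearman's rho of the deviation with transcript length was -0.50, -0.35 and 0.48 in the dFLEx tumors and 0.50 and -0.44 in the KP tumors. Over 24540 tested genes with a GC content the same rho with exonic length was -0.42, -0.17, 0.41, 0.33 and -0.28, so the order was not a property of OXPHOS genes alone. Genes of a library share its depth and RNA, so no p is given. The part of RNA quality in it was not tested. The trend with GC content and length over all genes gave nuclear members a median of 0.18, 0.16, -0.35, -0.26 and 0.22 in the 5 tumors. With that trend removed, the median nuclear fold change was 0.62 and 87 of 94 were above 0.

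**Figure D5:**
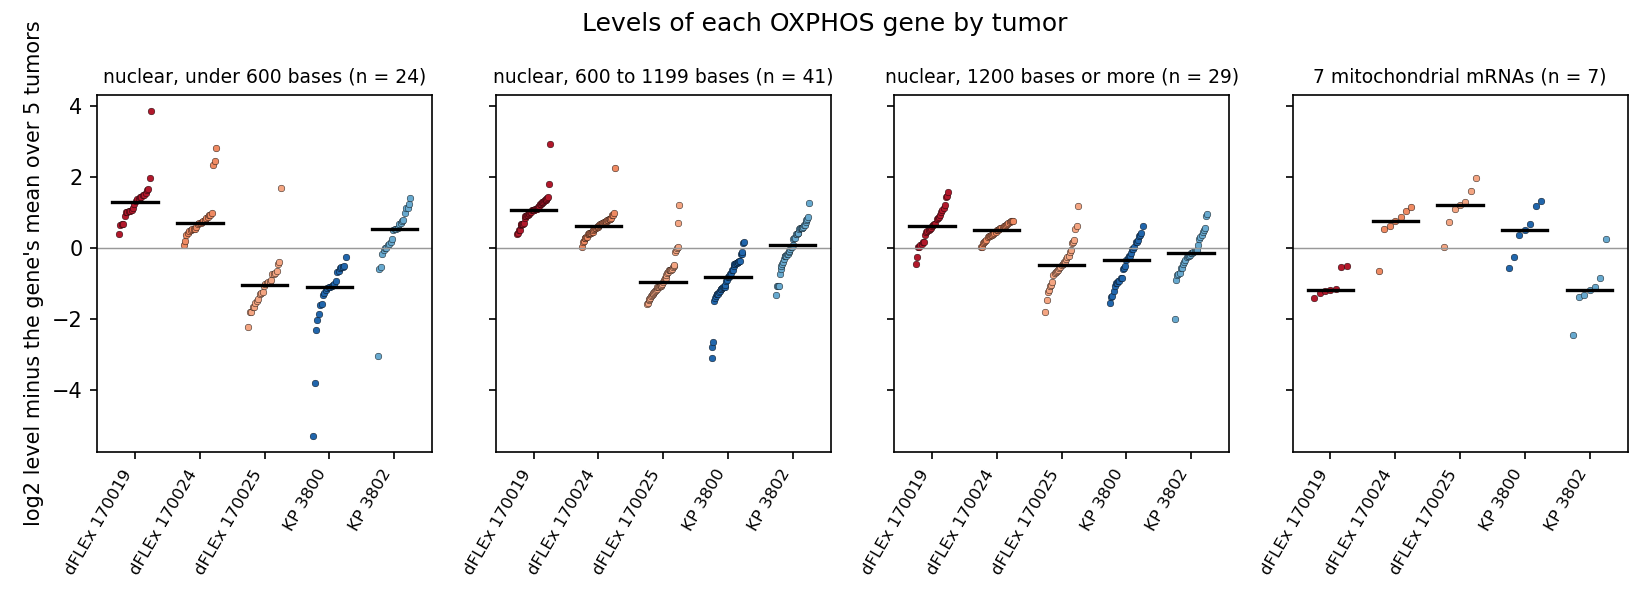
Each point is 1 tested member, at its log2 level (CPM plus 0.5) minus its own mean over the 5 tumors, in 3 classes of nuclear transcript length and for the 7 countable mitochondrial mRNAs; black lines are medians. The nuclear medians are above 0 in 170019 and 170024 and below 0 in 170025 and 3800 in all 3 classes, and the mitochondrial medians are lowest in 170019 and 3802.

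The mitochondrial mRNAs had another order. The 13 took 0.23%, 0.85% and 1.38% of all counts in 170019, 170024 and 170025 and 0.91% and 0.25% in 3800 and 3802. Thus 170019 and 3802, in which nuclear members took large shares, had the lowest mitochondrial shares, and only 170024 was above the mean for both sets. Relative to its own mean, the median of the 7 was -1.19, 0.76, 1.20, 0.49 and -1.19 in the 5 tumors. Duplicates differed more for these mRNAs than for nuclear genes: their sum was 3146 and 2183 CPM in the 2 libraries of 170019, a 1.44-fold difference, where the nuclear sum differed 1.06-fold.

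mt-Nd1, a complex I subunit, was at 887, 2823 and 2111 CPM in dFLEx and 1066 and 593 CPM in KP, with 170019 below 3800. Its fold change was the highest of the 7 (1.23 ± 0.67, edgeR adjusted p 0.64). mt-Co1, the catalytic subunit of complex IV, was at 726, 2435 and 6614 CPM against 3778 and 309 CPM (0.67 ± 1.14). mt-Cytb, the cytochrome b of complex III, was at 470, 1653 and 2603 CPM against 1705 and 412 CPM (0.57 ± 0.87). mt-Nd2 and mt-Nd4, of the proton-pumping arm of complex I, had fold changes of 0.67 ± 0.84 and 0.89 ± 0.84. mt-Nd5, of the same arm, was at 134, 226 and 1084 CPM against 903 and 199 CPM (-0.19 ± 1.00). All 7 had overlapping groups.

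The 7 mRNAs did not keep fixed proportions. Counts of mt-Nd1 over those of mt-Nd5 were 6.61, 12.5 and 1.95 in the dFLEx tumors and 1.18 and 2.99 in the KP tumors. mt-Nd6 is the only mRNA made from the light strand, and counting ignored strand, so its count can hold antisense RNA of the other strand. It was at 159, 423 and 235 CPM against 156 and 276 CPM, a narrower range than that of the other 6, with a fold change of 0.34 ± 0.63. Counts of mt-Nd6 over those of mt-Cytb were 0.34, 0.26 and 0.090 in dFLEx and 0.091 and 0.67 in KP. mt-Co2, mt-Atp6, mt-Co3, mt-Nd3 and mt-Nd4l, all within the copied region, had fitted fold changes from -0.02 to 1.19 on levels under 10 CPM. The median fold change of the 7 was 1.92 without 3800, 0.19 without 170025 and 0.08, with 4 of 7 above 0, without 3802.

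Of the 12 tested mitochondrial mRNAs, 5 lie within the copied region. The direct comparison of the sets used, for each tumor, the mean log2 CPM of these 12 minus that of the tested nuclear members. It was -2.50, -0.98 and 0.39 in 170019, 170024 and 170025 and -0.09 and -1.62 in 3800 and 3802. The mean was -1.03 ± 1.45 (SD, n = 3) in dFLEx and -0.86 ± 1.08 (SD, n = 2) in KP. The difference between groups, -0.18, was far smaller than the spread within either group, and the ranges overlapped. With the 7 countable mRNAs alone, a choice made after the data were seen, the values were 0.24, 2.25, 4.16, 3.62 and 1.06, and the difference was -0.12; it ranged from -1.40 without 3802 to 1.16 without 3800. The balance of the sets therefore differed between tumors of 1 group by more than between groups. The sign of the group difference turned when summed CPM was used in place of mean log2 CPM (0.25), and also without 170019 (0.56) or 3800 (0.59); it was -0.89 without 170025 and -0.94 without 3802.

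Related lists outside the rule gave further values. Of 41 tested assembly factors of the complexes, 31 had a fold change above 0, with a median of 0.61, and 11 (26.8%, against 13.7% of all genes) had every dFLEx tumor above both KP tumors. Another 3, Cox17, Cox18 and Sco1, had every dFLEx tumor below (11.7% of all genes). Of these, Cox17 was low in every tumor, from 1.3 to 2.23 CPM. Cox20 had the highest fold change (1.81 ± 1.04) and Cox18 the lowest (-0.75 ± 0.60), and both act on complex IV. Cox20 was at only 1.54, 1.42 and 1.096 CPM in dFLEx and 0.59 and 0.16 CPM in KP. Its level in 3802 was close to the 0.15 CPM that a count of 3 gives there, so its fold change rests on low counts. Of 77 tested mitochondrial ribosomal protein genes, whose products translate the 13 mRNAs, 56 were above 0 (median 0.31), from Mrps6 at -1.60 ± 0.62 to Mrps34 at 1.65 ± 0.68. The 13 tested tricarboxylic acid cycle genes had a median of 0.23, from Dlst at -0.45 ± 0.53 to Suclg2 at 1.76 ± 0.72. The 17 genes of mitochondrial transcription and DNA maintenance had a median of 0.20, from Top1mt at -0.73 ± 0.56 to Mterf2 at 1.03 ± 0.63, and the 16 of mitochondrial RNA processing a median of 0.06, from Rexo2 at -1.01 ± 0.58 to Fastkd3 at 0.56 ± 0.67. Complex III's Cyc1 and cytochrome c itself, Cycs, were at 0.08 ± 0.56 and 0.17 ± 0.58. No gene of these lists passed the threshold.

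Regulators of nuclear OXPHOS genes had a median of -0.29 over 9 tested genes, with 4 above 0 and none called. The coactivators Ppargc1a and Ppargc1b were both highest in 3802. Ppargc1a was at 1.44, 4.54 and 1.80 CPM in dFLEx and 4.65 and 9.31 CPM in KP (-1.42 ± 0.75). Ppargc1b was at 1.92, 5.10 and 2.49 CPM against 4.00 and 21.0 CPM (-1.97 ± 0.84). Esrrg, an orphan nuclear receptor that binds OXPHOS promoters, was at 16.5, 22.2 and 89.0 CPM against 1.32 and 1.63 CPM, without overlap (4.86 ± 1.04, edgeR adjusted p 0.12). Nrf1, the factor of the promoter motif above, was at 39.5, 35.7 and 46.9 CPM against 40.4 and 26.6 CPM (0.28 ± 0.56). Of the genes of GABP, Gabpb1 was at 60.9, 51.9 and 89.8 CPM against 38.6 and 16.0 CPM (1.31 ± 0.65). Gabpa was at 12.9, 21.9 and 56.0 CPM against 87.6 and 10.4 CPM (-0.70 ± 0.96). Esrrg and Gabpb1 were the 2 regulators with every dFLEx tumor above both KP tumors (22.2%, against 13.7% of all genes). Ppargc1a alone of the 9 had every dFLEx tumor below, against 11.7% of all genes.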

How the data were processed

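Bulk tumors were measured by 150-base paired-end RNA-seq. The authors trimmed reads with Trimmomatic (0.39), aligned them with STAR (2.7.10a) to mm39 (GRCm39) extended by the CIC::DUX4 construct, and deposited raw read counts per gene from featureCounts (Subread 2.0.3, per the file headers). Counting ignored strand, took each mate as 1 read, and left out reads with several alignments or over several genes. Of 10 labelled libraries, the second of 3802 was not analysed here.

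Symbols came from GENCODE M39 (98.7% of features). Duplicates were summed, since the tumor is the replicate; the duplicate numbers did not pair tumors (r of their differences from -0.013 to 0.016). Genes were filtered with filterByExpr, scaled by TMM and tested in edgeR (4.0.16, glmQLFit and glmQLFTest) with Benjamini-Hochberg adjustment over all genes. The SE is the absolute log2 fold change over the square root of F. Levels are TMM-scaled CPM. A count of 3 corresponds to 0.065 to 0.15 CPM per library, which covers counting error only. With 3 tumors against 2 no exact test of a single value can reach 0.05, so set values have no p. DESeq2 (1.42.0), limma (3.58.1), other scalings and filters, and leaving out each tumor were alternatives.

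The members, lists and named genes were chosen with earlier results of these data known. Named genes were the 13 mitochondrial mRNAs, the 6 highest and 6 lowest nuclear fold changes, tissue isoforms with counterparts, core subunits, and the extremes of outside lists. Ndufa12, Ndufv3, Ndufaf3, Uqcrb, Atp5f1e, Atp5pf, Cox17, Sco1, Gabpa, Gabpb1, Garin5b and Kmt5c were chosen after their values were seen. The values of 1 core subunit are not reported here. Scripts were tested on simulated counts.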

Additional observations from a re-analysis of the deposited data

How the results depend on the processing

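No member was called in edgeR on tumor sums (4 at an unadjusted p under 0.05). Over all genes 45 were called. Members called numbered 3 in DESeq2 (Cox6b2, Cox4i2, Ndufa4l2; 1388 of all genes), 4 with the 9 libraries as independent samples (the same 3 and Ndufa12, with 3344 of all genes), 2 in limma-voom with a random tumor effect (543 of all genes) and 2 without a filter on low counts (880 of all genes; Cox6b2, Cox4i2 in both), and 1 once the trend with GC and length was removed (Cox6b2, with 224 of all genes). The count was 0 under the 4 other scalings, with a minimum mean level of 1 CPM and from first duplicates alone, and 0 to 1 with 1 tumor left out in turn; a KP group of 1 tumor is then assumed to vary like dFLEx. With the replicate block, 3 members (Cox6b2, Cox4i2, Ndufa4l2) and 2476 of all genes were called, so Ndufa12 was lost; the duplicate numbers name no shared batch. The cause of these differences was not tested.

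The nuclear and mitochondrial median fold changes stayed above 0 in each alternative, at 0.21 to 1.27 for nuclear members and 0.29 to 1.35 for the 12 tested mitochondrial mRNAs with 1 tumor left out; for the 7 countable mRNAs the range was 0.075 to 1.92. The mitochondrial minus nuclear difference, -0.18, was 0.25 from summed CPM, 0.03 with the GC and length trend removed (added after seeing the data), and -0.94 to 0.59 with 1 tumor left out; for the 7 countable mRNAs (-0.12) that range was -1.40 to 1.16. Its sign is not set by these data. The isoform ratio difference of 2.34 was 2.29 from first duplicates and 1.16 to 3.51 with 1 tumor left out. Cox8c and Cox7b2, at 0 to 0.20 CPM, lie near the limit that a count of 0 allows (0.065 to 0.15 CPM), and levels of the 6 mRNAs in the copied region are limited by the copy.

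The following fold changes turned sign, none of them past the threshold. With library totals, the fold change was -0.15 for mt-Co3, -0.026 for Cox4i1, -0.15 for Cox6a1, -0.15 for Ndufs1, -0.13 for Sdhb, -0.12 for Sdhc, -0.017 for Sdhd, -0.18 for Atp5if1, -0.26 for Ndufaf7, -0.29 for Ndufa11, -0.16 for Ndufaf4 and -0.21 for Atp5mc3. With upper-quartile scaling, the fold change was -0.14 for mt-Co3, -0.016 for mt-Nd6, -0.039 for Ndufaf7, -0.19 for Ndufa11 and -0.097 for Atp5mc3. With a minimum mean level of 1 CPM, the fold change was -0.054 for mt-Co3, -0.061 for Ndufaf7, -0.13 for Ndufa11 and -0.052 for Atp5mc3. Without a filter, the fold change was 0.12 for mt-Nd4l. With the GC and length trend removed, the fold change was 0.32 for mt-Nd4l, 0.032 for mt-Nd5, -0.47 for Cox6a1, -0.058 for Cox8a, -0.096 for Sdhb, -0.23 for Ndufa11 and -0.039 for Atp5mc3. In limma-voom with a random tumor effect, the fold change was -0.057 for Cox6a1, -0.0033 for Sdhb, -0.19 for Atp5if1, -0.07 for Ndufaf7, -0.12 for Ndufa11, -0.036 for Ndufaf4 and -0.0001 for Atp5mc3. With the 9 libraries as independent samples, the fold change was -0.11 for Ndufs1, -0.086 for Ndufaf7 and -0.0012 for Ndufaf4. With these libraries and the replicate block, the fold change was -0.12 for Ndufs1, -0.085 for Ndufaf7 and -0.015 for Ndufaf4. In DESeq2, the fold change was -0.032 for Ndufaf7. With DESeq2 size factors, the fold change was -0.032 for Ndufaf7. From first duplicates alone, the fold change was -0.11 for Ndufa11. With 1 tumor left out the fold change ranged from -0.36 to 3.58 for mt-Co1, -0.25 to 1.25 for mt-Co3, -0.15 to 1.92 for mt-Nd3, -0.21 to 0.13 for mt-Nd4l, -1.61 to 1.46 for mt-Nd5, -0.17 to 0.82 for mt-Nd6, -0.099 to 2.11 for mt-Cytb, -0.51 to 1.71 for Cox4i1, -0.53 to 0.90 for Cox6a1, -0.14 to 2.05 for Cox6b1, -0.051 to 1.15 for Cox7a2, -0.18 to 0.65 for Cox8a, -0.46 to 1.22 for Ndufs1, -0.24 to 1.22 for Ndufs8, -0.017 to 0.52 for Sdhb, -0.037 to 0.45 for Sdhc, -0.082 to 0.56 for Sdhd, -0.037 to 1.19 for Uqcrc1, -0.013 to 0.88 for Atp5f1a, -0.69 to 0.81 for Atp5if1, -1.09 to 1.02 for Ndufaf8, -0.28 to 0.58 for Ndufaf7, -0.67 to 1.39 for Ndufa11, -0.27 to 0.83 for Ndufaf4 and -0.26 to 0.68 for Atp5mc3.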

Other observations

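Other transcripts of mitochondrial DNA were outside the rule. The rRNAs mt-Rnr1 and mt-Rnr2, whose level depends on rRNA depletion as well as on the cell, summed to 1751, 1627 and 1096 CPM in 170019, 170024 and 170025 and to 1069 and 1505 CPM in 3800 and 3802. The order of this sum resembled that of the nuclear members and not that of the mitochondrial mRNAs. The same held for mt-Rnr2, at 1171, 1074 and 686 CPM in dFLEx and 651 and 1110 CPM in KP. But mt-Rnr1, at 580, 553 and 410 CPM against 418 and 396 CPM, was lowest in 3802. The log2 fold changes of mt-Rnr1 and mt-Rnr2 were 0.34 ± 0.51 and 0.15 ± 0.55, and neither passed the threshold.

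Of the 8 tRNAs of the light strand, 6 had their highest level in 3802, where 7826 of the 24743 tested genes were also highest. Among the 6, mt-Ta and mt-Te had only 10 and 21 counts in 3802. mt-Ts1 had no count there and mt-Tq had none in any library. mt-Tn was at 5.45 CPM in 3802, and mt-Tc at 11.95 CPM, where the other tumors had 0.040 to 0.52 and 0.038 to 1.32 CPM. mt-Tp was at 31.5 CPM in 3802 and 8.13 to 17.9 CPM in the others. The counts of mt-Nd6, the mRNA of the light strand, over those of mt-Cytb were also highest in 3802. Counting ignored strand, so these tRNA counts, like those of mt-Nd6, can hold RNA of the other strand.

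Genes within 40000 bases of Cox4i2 or Ndufa4l2, windows set by position, included some with high fold changes. Id1, an inhibitor of helix-loop-helix factors that lies beside Cox4i2, was at 624, 368 and 171 CPM in dFLEx and 21.3 and 34.1 CPM in KP (log2 fold change 3.81 ± 0.79, edgeR adjusted p 0.12), while Bcl2l1 on the other side was at -0.83 ± 0.51. Nxph4, near Ndufa4l2, was at 11.02, 4.96 and 9.07 CPM against 0.40 and 0.65 CPM (4.00 ± 0.80, edgeR adjusted p 0.11), while Shmt2, which overlaps the end of Ndufa4l2, was at -0.39 ± 0.52. The other tested genes near Ndufa4l2 were Stac3 (1.23 ± 0.77), R3hdm2 (1.07 ± 0.95) and Lrp1 (-0.82 ± 0.71). No gene in these windows passed the threshold.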
